A study of Saccharomyces cerevisiae with 10 samples.

Results

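Nuclear depletion of Nab3 was compared directly with nuclear depletion of Nrd1 in Saccharomyces cerevisiae, with 2 libraries of each, to ask on which genes the partners of 1 complex leave different signals when they are removed. The members of the comparison were the features whose mean over the 4 depleted libraries was at least 10 normalised reads, after the table holding the Nrd1 libraries had been multiplied by 1.18, the median ratio of the control columns that both tables hold. This kept 6404 of 6677 features, and 273 lay below. Just below the minimum were YDL163W at 9.97, YDR355C at 9.84 and YAR043C at 9.82, and just above it YFL066C at 10.1, YBR013C at 10.2 and YLR012C at 10.3. The 4 depleted libraries are 4 of the 10 samples of the series.

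All libraries came from PAR-CLIP, in which living cells are irradiated with UV light so that RNA is crosslinked to a tagged protein, and the RNA bound to that protein is purified and sequenced. The design text puts RNA polymerase II (Pol II) under study, so the reads on a gene are taken as RNA held by the polymerase there. The first group is the strain labelled NabFRB (2875) with rapamycin, for a time that the labels do not give. The second is the strain labelled Rpb2HTB_NrdFRB(2771) with 45 min of rapamycin, the only strain whose label names the tagged protein, the Pol II subunit Rpb2 with an HTB tag. Both are compared below with the same 2 control libraries, of the strain labelled NabCassette (2876) without rapamycin. The sources used here do not say what the cassette is. All 3 were grown in CSM medium with limiting uracil. The FRB tag on Nab3 or Nrd1 lets rapamycin tie the protein to an anchor that carries it out of the nucleus, so the gene stays intact and its reads do not check the depletion. Strain, depleted protein and possibly rapamycin time and tagged protein changed together between the depleted groups, so their parts in a difference cannot be told apart. Between either depleted group and the cassette, strain, depletion, rapamycin and possibly tagged protein changed together. Their parts in a change against the cassette cannot be told apart. In a bulk culture, a change in every cell and a change in the share of cells in some state cannot be told apart either.

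Nab3 and Nrd1 are RNA-binding proteins that act with the helicase Sen1. The complex ends transcription of small nucleolar RNA (snoRNA) genes and of many short unstable transcripts, and it stops the polymerase early on a group of mRNA genes, NRD1 itself among them. Nrd1 is known to recognise GUAA and GUAG in RNA and Nab3 UCUU and CUUG, usually in clusters, and Nrd1 also binds the tail of Pol II.

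The stretches below are shown because the largest differences fell on genes with known promoter elements and on genes behind snoRNAs. They were read from the R64 genome, the build that the labels name, 5′ to 3′ on the sense strand of the gene. The first 3 lie upstream of genes of the phosphate starvation response, and capitals mark CACGTG and CACGTT, the letters recognised by its activator Pho4, on either strand. The PHO84 stretch is chrXIII:26037-26336 and holds 3 of the 4 matches in the window of 500 bases searched, which ended 100 bases before the start codon. The SPL2 stretch is chrVIII:375222-375481 and the PHO5 stretch chrII:431179-431333, all on the minus strand.
PHO84: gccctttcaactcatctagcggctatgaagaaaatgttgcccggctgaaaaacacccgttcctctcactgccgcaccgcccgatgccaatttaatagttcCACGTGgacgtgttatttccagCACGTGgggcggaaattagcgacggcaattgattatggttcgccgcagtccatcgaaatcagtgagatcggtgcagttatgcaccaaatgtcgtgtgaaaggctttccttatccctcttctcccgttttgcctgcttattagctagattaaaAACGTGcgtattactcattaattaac
SPL2: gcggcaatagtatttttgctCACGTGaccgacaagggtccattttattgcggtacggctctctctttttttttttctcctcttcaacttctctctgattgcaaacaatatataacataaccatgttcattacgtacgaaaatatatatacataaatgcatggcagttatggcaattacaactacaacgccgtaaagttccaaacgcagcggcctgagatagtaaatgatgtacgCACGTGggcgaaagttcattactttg
PHO5: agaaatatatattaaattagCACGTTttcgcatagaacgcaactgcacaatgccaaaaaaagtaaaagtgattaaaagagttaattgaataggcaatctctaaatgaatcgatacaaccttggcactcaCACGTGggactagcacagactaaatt
The next 3 lie upstream of genes of inositol and phospholipid synthesis, and capitals mark CATGTG on either strand, the core letters of the element bound by the activators Ino2 and Ino4. They are INO1 at chrX:136086-136196, ITR1 at chrIV:1445663-1445879 and OPI3 at chrX:573058-573167, all on the minus strand.
INO1: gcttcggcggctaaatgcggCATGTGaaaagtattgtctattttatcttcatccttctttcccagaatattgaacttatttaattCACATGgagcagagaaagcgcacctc
ITR1: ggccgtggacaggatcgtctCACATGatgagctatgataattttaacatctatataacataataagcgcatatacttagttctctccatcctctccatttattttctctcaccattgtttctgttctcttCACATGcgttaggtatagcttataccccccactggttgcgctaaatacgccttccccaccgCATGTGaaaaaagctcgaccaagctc
OPI3: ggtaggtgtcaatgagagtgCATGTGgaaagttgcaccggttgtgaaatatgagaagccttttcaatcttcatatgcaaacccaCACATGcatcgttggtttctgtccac
The stretches upstream of the stress genes TMA10, at chrXII:783701-783978 on the minus strand, and HSP12, at chrVI:106801-107090 on the plus strand, carry AGGGG or its complement in capitals, the stress response element bound by Msn2 and Msn4.
TMA10: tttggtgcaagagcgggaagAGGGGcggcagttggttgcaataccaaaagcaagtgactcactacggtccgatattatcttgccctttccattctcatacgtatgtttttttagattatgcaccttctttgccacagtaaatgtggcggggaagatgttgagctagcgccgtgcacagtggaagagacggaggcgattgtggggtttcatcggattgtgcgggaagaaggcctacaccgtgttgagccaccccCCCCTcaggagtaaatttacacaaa
HSP12: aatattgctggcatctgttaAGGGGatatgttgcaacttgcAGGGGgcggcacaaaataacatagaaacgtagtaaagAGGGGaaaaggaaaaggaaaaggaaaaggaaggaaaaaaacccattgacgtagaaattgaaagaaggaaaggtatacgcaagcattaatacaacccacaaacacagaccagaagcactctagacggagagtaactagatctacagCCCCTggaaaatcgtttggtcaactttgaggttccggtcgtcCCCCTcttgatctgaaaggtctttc
The last stretches are the 120 bases behind the snoRNA genes SNR13 (chrIV:1403043-1403162, plus strand) and SNR47 (chrIV:541482-541601, minus strand), with GTAA and GTAG, and likewise TCTT and CTTG, of the sense strand in capitals. Neighbouring matches can run into each other, as TCTT and CTTG do in TCTTG.
SNR13: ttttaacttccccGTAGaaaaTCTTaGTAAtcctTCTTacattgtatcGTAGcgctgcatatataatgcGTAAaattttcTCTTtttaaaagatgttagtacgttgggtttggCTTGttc
SNR47: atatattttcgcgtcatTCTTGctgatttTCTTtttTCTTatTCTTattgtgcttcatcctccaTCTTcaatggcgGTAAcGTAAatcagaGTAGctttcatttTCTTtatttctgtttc

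Of the 6404 features, 770 (12%) were higher after Nab3 depletion and 569 (8.89%) after Nrd1 depletion, in all 1339 (20.9%), by limma on log2(value + 1) with Benjamini-Hochberg adjustment and a threshold of 0.05. Each list count below is to be read beside these shares of all features. Most called differences were small, since the median size of a called difference was 0.38 on the log2 scale. By at least 2-fold, 54 features were higher after Nab3 depletion and 40 after Nrd1 depletion. Differences are given throughout as Nab3 minus Nrd1, so a negative value means more signal after Nrd1 depletion, and values in libraries are normalised reads on the joint scale. The balance of calls turned with the scaling: upper-quartile scaling gave 634 higher after Nab3 and 816 after Nrd1 depletion, and scaling to the total gave 626 and 723. Leaving out Nab3 library 2 or 3 cut the calls to 312 and 166 or to 275 and 134. Leaving out Nrd1 library 1 gave 921 and 653, and leaving out Nrd1 library 2 gave 1160 and 924. Without cassette library 1 the counts were 486 and 306 and without cassette library 2 they were 490 and 308. The 54 differences of at least 2-fold became 25 without Nab3 library 3 and 90 without Nrd1 library 1, and the 40 became 22 without Nab3 library 2, 18 without Nab3 library 3 and 94 without Nrd1 library 2. Libraries held 7395659 to 13428820 reads. The Nrd1 libraries differed most from each other, with 371 of 6404 features more than 1.5-fold apart, against 111 for the Nab3 and 141 for the cassette libraries. The labels do not say whether the 2 libraries of a group are separate cultures, and the p-values cover only the variation between such libraries.

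**Figure D1:**
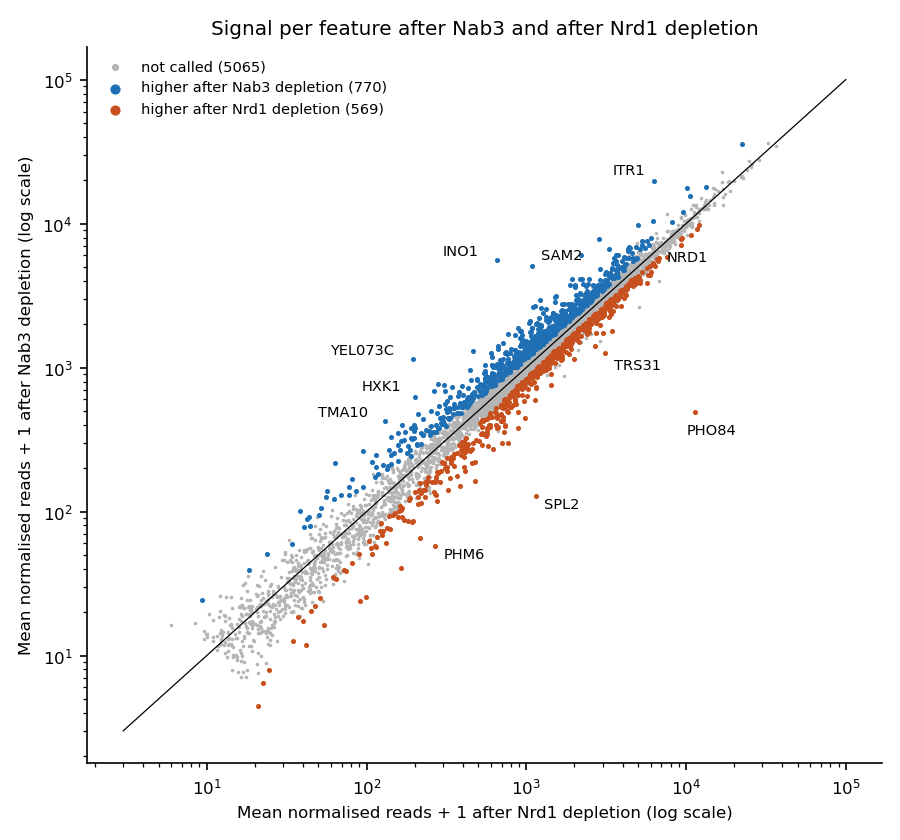
Mean normalised reads plus 1 of the 2 Nab3 libraries (vertical) against the 2 Nrd1 libraries (horizontal) for 6404 features, both on log scales, with the line of equal values. Coloured points are the 770 and 569 features called; PHO84, SPL2 and PHM6 lie farthest to the right of the line and INO1 and YEL073C far above it.

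Signal on phosphate starvation genes was higher after Nrd1 than after Nab3 depletion, on 19 of 30 genes, with 1 gene the other way and a median difference of -0.40, against 0.00 over all features. Many of these genes take up, release or store phosphate and are switched on when the kinase Pho80-Pho85 is inhibited and Pho4 enters the nucleus. The list also holds regulators, low-affinity transporters and other genes, not all of them under Pho4. Among its calls were CTF19 (-0.52), PHO3 (-0.40) and VIP1 (-0.39), the last lost without Nab3 library 2 and without either cassette library. PHO84, the high-affinity phosphate transporter (chrXIII:24037-25800, minus strand), had 496 and 489.6 normalised reads in the Nab3 libraries, 12449 and 10360 in the Nrd1 libraries and 2928 and 3515 in the cassette libraries. The 3 groups did not overlap, and the cassette lay between the depletions. PHO84 was 23.1-fold higher after Nrd1 than after Nab3 depletion (log2 difference -4.52 ± 0.10 SE, adjusted p = 5.29e-08), the largest difference among the 6404 features. An annotated antisense RNA gene overlaps PHO84, and reads of both cannot be told apart, because no source used here says whether strand was kept in counting. SPL2 (chrVIII:374654-375100, minus strand), whose small protein acts on phosphate transporters, had 136 and 117 in the Nab3 libraries, 1159 and 1126 in the Nrd1 libraries and 519 and 519.5 in the cassette libraries. It was thus 9.02-fold higher after Nrd1 depletion (log2 difference -3.17 ± 0.11 SE, adjusted p = 8.14e-07). PHM6, of unknown function, followed the same order, with 53.1 and 59.7 in the Nab3 libraries, 246 and 291 in the Nrd1 libraries and 144 and 129 in the cassette libraries (log2 difference -2.23 ± 0.17 SE, adjusted p = 0.000124).

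The secreted acid phosphatase gene PHO5 had 377 and 387 in the Nab3 libraries, 820.0 and 941 in the Nrd1 libraries and 585 and 669.7 in the cassette libraries (log2 difference -1.20 ± 0.10 SE, adjusted p = 0.000197). Its relatives PHO11 and PHO12 are near-identical copies of each other, so their single values, -0.54 (lost without Nab3 library 3) and -0.70, are uncertain. The sodium-coupled phosphate transporter gene PHO89 differed by -1.20, with 97.1 and 70.6 in the Nab3 libraries, 206 and 178 in the Nrd1 libraries and 204 and 186 in the cassette libraries. The Nrd1 values of PHO89 lay close to the cassette values, while both Nab3 values were lower. All 4 listed genes of the vacuolar complex that makes polyphosphate were higher after Nrd1 depletion: VTC4 (-0.95), VTC3 (-0.92), VTC1 (-0.66) and VTC2 (-0.42). VTC4, the polymerase of the complex, had 1752 and 1812 after Nab3 and 3803 and 3104 after Nrd1 depletion, with 2175 and 2336 in the cassette. The inhibitor of the Pho80-Pho85 kinase, PHO81, differed by -0.81 (1757 and 1693 against 3170.3 and 2899.7), and the cyclin PHO80 by -0.37, the latter lost without either Nab3 library and without the multiplication. The kinase PHO85 (0.17) and the activators PHO4 (0.16) and PHO2 (0.16) were not called. Of the low-affinity transporters, PHO87 (-0.55) was called, PHO90 (-0.30) was called but lost without either Nab3 library, and PHO91 (-0.11) was not called. The gene that went the other way was PPN1, a polyphosphatase, at 0.22, a call lost under 10 of the alternatives tried, among them DESeq2 and the omission of any of the 6 libraries but Nrd1 library 2.

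Against the cassette libraries, which both depletions share, 12 of the 30 phosphate genes were lower and 9 higher after Nab3 depletion, and 22 were higher and 2 lower after Nrd1 depletion. Over all features 11.0% were lower and 15.3% higher after Nab3 depletion, and 20.1% were higher and 19.5% lower after Nrd1 depletion. The changes of PHO84 were -2.70 (adjusted p = 7.59e-07) after Nab3 and 1.82 (adjusted p = 5.51e-06) after Nrd1 depletion. Those of SPL2 were -2.03 (adjusted p = 3.45e-06) and 1.14 (adjusted p = 7.85e-05), and those of PHM6 -1.26 (adjusted p = 0.000798) and 0.97 (adjusted p = 0.00237). In VTC2 the change was -0.01 (adjusted p = 0.889) after Nab3 and 0.40 (adjusted p = 0.00107) after Nrd1 depletion, so there only the second was called.

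**Figure D2:**
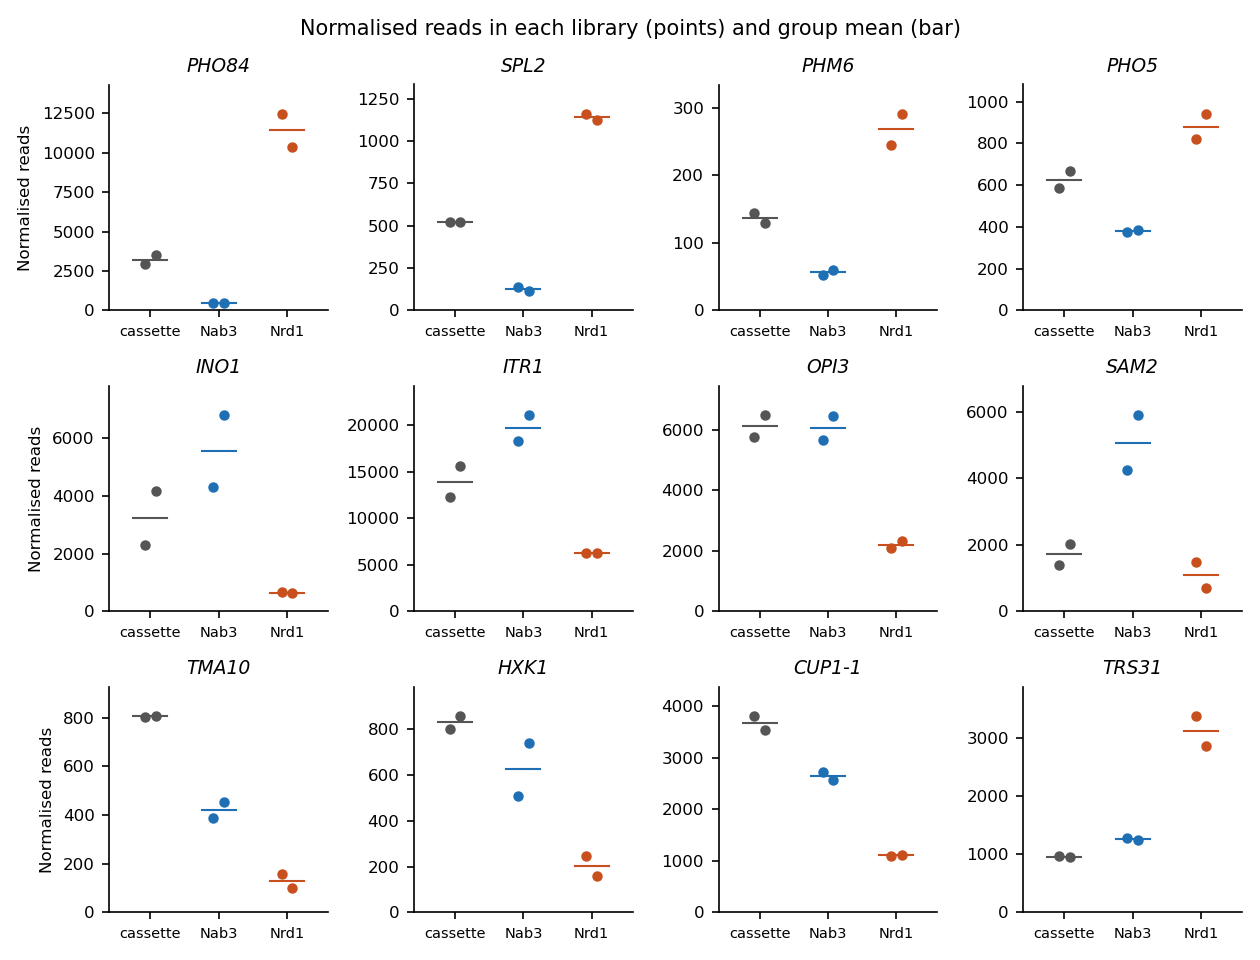
Normalised reads of 12 genes in each of the 6 libraries (points; bars are means of 2 libraries), on linear axes that start at 0. PHO84, SPL2, PHM6 and PHO5 are lowest after Nab3 and highest after Nrd1 depletion; INO1, ITR1 and OPI3 are lowest after Nrd1 depletion.

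Genes of inositol and phospholipid synthesis went the opposite way, with 15 of 21 higher after Nab3 depletion, 0 higher after Nrd1 depletion and a median difference of 0.65. Cells make phosphatidylcholine through a chain of membrane enzymes and draw on inositol, and the genes are switched on together by Ino2 and Ino4 and held down by Opi1 when inositol is plentiful. INO1, which makes inositol phosphate from glucose phosphate (chrX:134332-135933, minus strand), had 4322 and 6815 in the Nab3 libraries, 686 and 625 in the Nrd1 libraries and 2294 and 4177 in the cassette libraries. The cassette libraries were themselves far apart, both Nrd1 values lay below them, and Nab3 library 2 was close to the higher cassette value. INO1 was higher after Nab3 than after Nrd1 depletion (log2 difference 3.05 ± 0.26 SE, adjusted p = 0.000197). The inositol transporter gene ITR1 (chrIV:1443713-1445467, minus strand) had 18352 and 21132 in the Nab3 libraries, 6281 and 6309 in the Nrd1 libraries and 12279 and 15629.9 in the cassette libraries, 3.14-fold apart between depletions (log2 difference 1.65 ± 0.12 SE, adjusted p = 0.000121). OPI3, which adds the last methyl groups of phosphatidylcholine (chrX:572315-572935, minus strand), had 5655 and 6456 in the Nab3 libraries, 2086 and 2316 in the Nrd1 libraries and 5759 and 6486 in the cassette libraries (log2 difference 1.46 ± 0.09 SE, adjusted p = 6.18e-05). In OPI3 the Nab3 values lay with the cassette values and only the Nrd1 values stood apart.

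The enzymes of the same chain followed. PSD1, phosphatidylserine decarboxylase, differed by 1.09 (3818 and 4404 against 1975 and 1889). CHO1, phosphatidylserine synthase, differed by 1.00 and CHO2, which adds the first methyl group, by 0.97. The choline kinase gene CKI1 differed by 0.88 and EPT1 and CPT1, which join head groups to diacylglycerol, by 0.56 and 0.41. The regulators were called too, OPI1 at 0.65, INO2 at 0.64 and INO4 at 0.44. The second inositol transporter gene ITR2 (-0.05), the second decarboxylase gene PSD2 (0.06) and PIS1, phosphatidylinositol synthase (0.15), were not called. Among fatty acid genes, ACC1 (0.82) and FAS2 (0.68) were called, each lost without either Nab3 library, and FAS1 (0.47) and OLE1 (0.66) were not. In all 4, Nrd1 library 1 was the higher of the Nrd1 libraries, and OLE1 had 9808 and 5463 there against 11557 and 11563 in the Nab3 libraries.

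Against the cassette, 10 of the 21 genes were higher and 0 lower after Nab3 depletion, and 1 was higher and 12 lower after Nrd1 depletion. INO1 changed by 0.81 (adjusted p = 0.0502) after Nab3 and by -2.24 (adjusted p = 0.000333) after Nrd1 depletion, of which the first missed the threshold. ITR1 changed by 0.51 (adjusted p = 0.0151) and -1.14 (adjusted p = 0.000191), and OPI3 by -0.02 (adjusted p = 0.913) and -1.48 (adjusted p = 7.85e-06).

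General stress genes, which Msn2 and Msn4 switch on under many stresses, were the list with the most calls for its size among the 33 lists described: 37 of 46 were higher after Nab3 depletion, 0 after Nrd1 depletion, and the median was 0.74. TMA10 (chrXII:783127-783387, minus strand) had 389 and 456 in the Nab3 libraries, 159 and 99.6 in the Nrd1 libraries and 805 and 808 in the cassette libraries. The groups of TMA10 did not overlap and both depletions lay below the cassette, Nrd1 depletion the farther (log2 difference 1.73 ± 0.19 SE, adjusted p = 0.000834). The hexokinase gene HXK1 had 508 and 741 in the Nab3 libraries, 244 and 158 in the Nrd1 libraries and 800.3 and 857 in the cassette libraries (log2 difference 1.64 ± 0.22 SE, adjusted p = 0.0018). RTC3 differed by 1.46 (717 and 817 against 295 and 260.2) and STF2 by 1.37 (613 and 761 against 292 and 238). The small heat shock genes HSP42 and HSP26 differed by 1.23 and 1.06 and HSP12 by 1.12. The glucokinase gene GLK1, which another annotated gene overlaps, differed by 1.06, and the nicotinamidase gene PNC1 by 0.98. XBP1, a repressor of transcription, had 505 and 571 in the Nab3 libraries, 285 and 283 in the Nrd1 libraries and 317 and 290.3 in the cassette libraries. Its Nab3 values thus stood above the rest. The 9 members not called ranged from YGP1 at -0.07 to PAI3 at 0.78, and GRE1 among them had 445 and 446 against 367 and 264 with 67.2 and 57.6 in the cassette. Against the cassette, 13 of the 46 were lower and 8 higher after Nab3 depletion (median -0.12), and 34 were lower and 2 higher after Nrd1 depletion (median -0.83). Of the 46 genes, 7 were more than 1.5-fold apart between the Nrd1 libraries and 0 between the Nab3 libraries. Without Nab3 library 3 the 37 calls fell to 22.

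Trehalose and glycogen genes, which share TPS1, TSL1, PGM2 and others with the stress list, had 13 of 21 higher after Nab3 depletion and 0 after Nrd1 depletion (median 0.45). Without Nab3 library 3 those 13 fell to 5. TPS1, trehalose phosphate synthase, had 1967 and 2139 in the Nab3 libraries, 1216 and 1129 in the Nrd1 libraries and 1675 and 1773 in the cassette libraries (log2 difference 0.81 ± 0.07 SE, adjusted p = 0.000197). TSL1 (1.54) and the glycogen phosphorylase gene GPH1 (1.30) were called but lost without Nab3 library 3. The branching enzyme gene GLC3 differed by 0.86. The list of Hsf1-driven genes, mostly chaperones that refold damaged proteins, had 14 of 29 (48.3%) higher after Nab3 depletion and 0 after Nrd1 depletion (median 0.31). Its largest differences were those of HSP42, HSP12 and HSP26, already given above with the stress genes, so the lists are not independent. Against the cassette, 11 of the 29 were lower after Nab3 and 26 after Nrd1 depletion, and 0 were higher in either. Of the 29 genes, 7 were more than 1.5-fold apart between the Nrd1 libraries and 0 between the Nab3 libraries. HSP104, a disaggregase, had 3753 and 4510.4 in the Nab3 libraries, 1949.8 and 2412 in the Nrd1 libraries and 5484 and 5475 in the cassette libraries (log2 difference 0.92 ± 0.11 SE, adjusted p = 0.00107). HSP78, its mitochondrial relative, differed by 0.89. The inducible Hsp70 gene SSA4 had 824 and 795 in the Nab3 libraries, 691 and 583 in the Nrd1 libraries and 2400.0 and 2205 in the cassette libraries, a difference of 0.35 whose call was lost without either Nab3 or either cassette library. The count of chaperone calls fell to 6 without Nab3 library 3, to 7 without Nab3 library 2 and to 8 without either cassette library, and it rose to 25 without Nrd1 library 2. Of the 7 genes that the authors' deposited table places in its heat shock category, 6 were higher after Nab3 depletion, with a median of 0.89.

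Vacuolar proteases, which degrade cargo when nutrients run short, were listed with the protease inhibitor genes PBI2 and PAI3 and with NPC2, which is not a protease. Of this list of 10, 5 (50%) were higher after Nab3 depletion and 0 after Nrd1 depletion (median 0.38). The largest call was that of the inhibitor gene PBI2 (1.03), with 454 and 549 in the Nab3 libraries and 319 and 186 in the Nrd1 libraries. PRB1, proteinase B, had 4581 and 5056 in the Nab3 libraries, 3201 and 2588 in the Nrd1 libraries and 3551 and 3909 in the cassette libraries (log2 difference 0.74 ± 0.10 SE, adjusted p = 0.00216). In this list and in the stress, trehalose, chaperone and phospholipid lists, the count after Nrd1 depletion was also 0 at an unadjusted p under 0.05, by edgeR and by DESeq2. PEP4, proteinase A, differed by 0.64 and PRC1, carboxypeptidase Y, by 0.42, the last call being lost without Nab3 library 2. Without either Nab3 library 3 of the 5 calls were left.

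**Figure D3:**
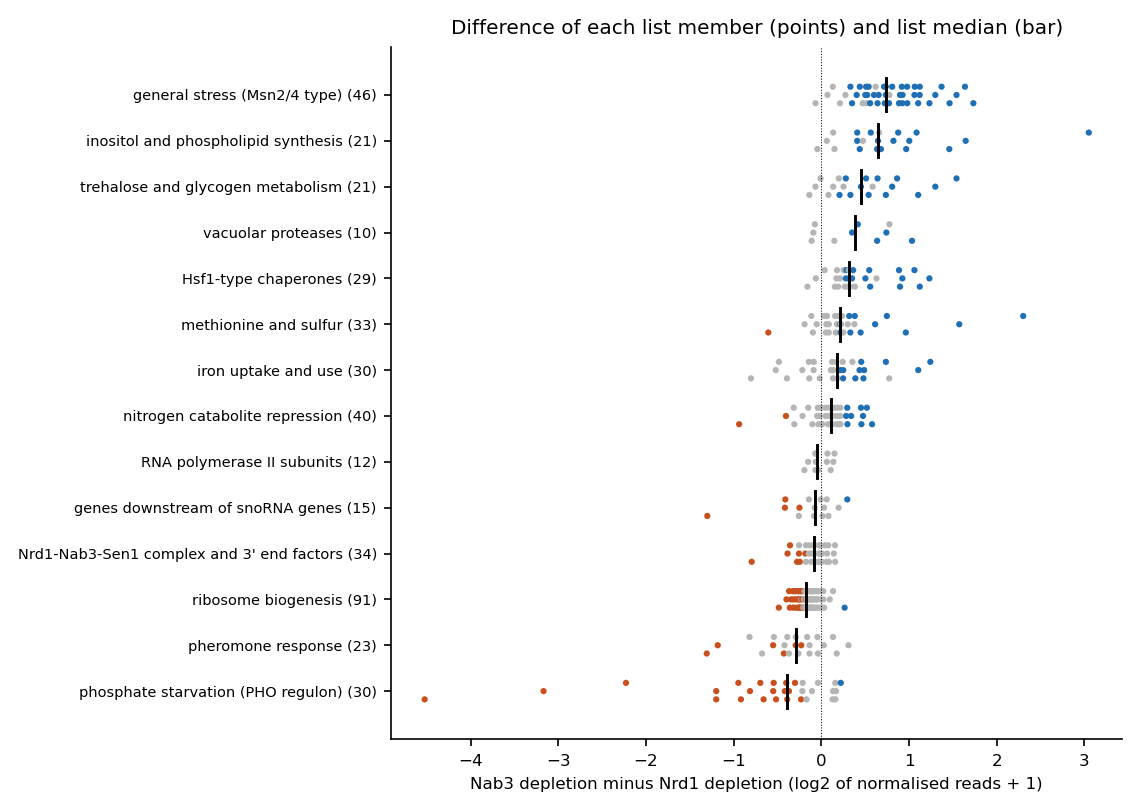
Difference between Nab3 and Nrd1 depletion, as log2 of normalised reads plus 1, for each tested member of 14 lists (points; the number tested is in brackets) with the list median as a bar. Blue points were called higher after Nab3, orange after Nrd1 depletion, and grey points were not called. The stress list has its median at 0.74 and the phosphate list at -0.40.

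Ribosome biogenesis genes, whose products build ribosomes in the nucleolus, had 30 of 91 higher after Nrd1 depletion and 1 after Nab3 depletion, with a median of -0.17. The shift is small beside the effect of scaling: without the multiplication by 1.18 the median of all features moved to 0.24 and that of the list to 0.07, still below the rest, with 1 call left. ENP1, needed for the small subunit, had 1734 and 1686 in the Nab3 libraries, 2449.7 and 2338 in the Nrd1 libraries and 1988 and 1873 in the cassette libraries (log2 difference -0.49 ± 0.06 SE, adjusted p = 0.00129). IMP3, of the same machinery, had 1421 and 1464 in the Nab3 libraries, 1845 and 1880.0 in the Nrd1 libraries and 1670.4 and 1655 in the cassette libraries (log2 difference -0.37 ± 0.06 SE, adjusted p = 0.00341), a call lost without the multiplication. Of 171 genes in the authors' deposited biogenesis category, 52 were higher after Nrd1 and 1 after Nab3 depletion (median -0.14). The 52 became 13 without Nab3 library 3, 20 without Nab3 library 2 and 32 without either cassette library. Of the 91, leaving out Nab3 library 3 reduced the 30 calls to 7, leaving out Nab3 library 2 to 11 and leaving out either cassette library to 15. Ribosomal protein genes had 6 of 137 (4.38%) higher after Nrd1 and 3 (2.19%) after Nab3 depletion, with a median of -0.06. Over all features the shares were 8.89% and 12%. Without Nrd1 library 2, 66 of the 137 were higher after Nrd1 depletion, and without either Nab3 library 0 were. Of 12 genes for Pol II subunits, limma and edgeR called 0 and DESeq2 called 1, higher after Nrd1 depletion, and their median was -0.05. At an unadjusted p under 0.05, 2 were higher after Nab3 and 1 after Nrd1 depletion. RPB2 had 5792 and 5456 in the Nab3 libraries, 5848 and 5710.4 in the Nrd1 libraries and 5762 and 5749 in the cassette libraries.

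**Figure D4:**
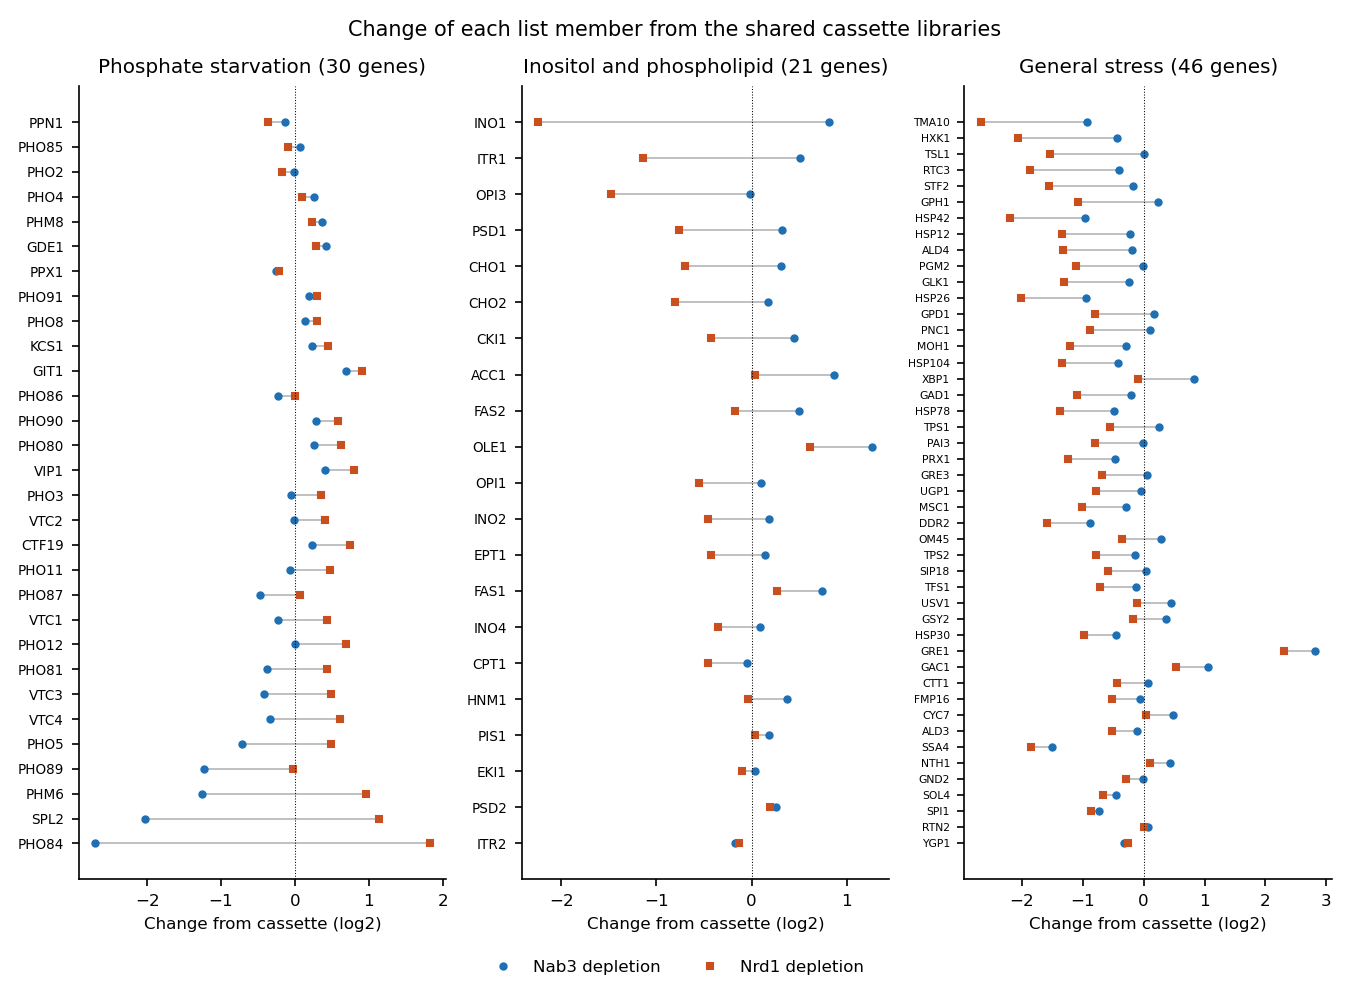
Change of each member from the shared cassette libraries (log2 of normalised reads plus 1) after Nab3 depletion (circles) and after Nrd1 depletion (squares) for 30 phosphate, 21 inositol and phospholipid and 46 stress genes, ordered by the difference. Both changes use the same 2 cassette libraries. Most stress genes lie farther below 0 after Nrd1 depletion, and PHO84, SPL2 and PHM6 lie on opposite sides of 0.

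The genes of the complex itself were not called between the depletions. NRD1, whose own transcript the complex cuts short (chrXIV:172588-174315, minus strand), had 7487 and 8536 in the Nab3 libraries, 8806 and 8252 in the Nrd1 libraries and 1959 and 2103 in the cassette libraries. Its difference was -0.09 ± 0.08 SE (adjusted p = 0.429), and the depleted libraries overlapped. NAB3 (-0.03) and SEN1 (-0.14) were not called. SEN1 had 3081 and 2956 in the Nab3 libraries, 3474 and 3169 in the Nrd1 libraries and 1490.0 and 1542 in the cassette libraries. REF2, of the cleavage and polyadenylation factor, had 2571 and 2471 in the Nab3 libraries, 2697 and 2633 in the Nrd1 libraries and 990.4 and 1003 in the cassette libraries (-0.08, not called). The list of the complex and the 3′ end factors had 7 of 34 (20.6%, against 8.89% of all features) higher after Nrd1 depletion. After Nab3 depletion 0 were higher (median -0.08), the latter count being 0 also at an unadjusted p under 0.05, by edgeR and by DESeq2. It did not stay 0 without Nrd1 library 2. On the Nrd1 side edgeR and DESeq2 each called 5. PTI1, of the cleavage and polyadenylation factor (chrVII:800546-801823, plus strand), stood out in it with 1128 and 1161 in the Nab3 libraries, 1919 and 2054 in the Nrd1 libraries and 1426 and 1424 in the cassette libraries (log2 difference -0.79 ± 0.06 SE, adjusted p = 0.000147). Its 3 groups did not overlap, and the cassette lay in the middle. AIR2, of the TRAMP complex that marks nuclear RNA for decay, differed by -0.39, a call lost without the multiplication. The 7 calls of the list became 3 without either Nab3 library and 4 without either cassette library.

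Of 12 mRNA genes known for early termination, 3 (25%) were higher after Nab3 and 1 (8.33%) after Nrd1 depletion (median 0.09). Over all features the shares were 12% and 8.89%. IMD2, a guanine nucleotide enzyme whose reads may be shared with near-identical copies, had 5182 and 5544 in the Nab3 libraries, 3483 and 3459 in the Nrd1 libraries and 819.7 and 852 in the cassette libraries (log2 difference 0.63 ± 0.06 SE, adjusted p = 0.000302). URA8, CTP synthase (chrX:620754-622490, plus strand), had 6594 and 7162 in the Nab3 libraries, 4724 and 4088 in the Nrd1 libraries and 1766 and 1835 in the cassette libraries (log2 difference 0.64 ± 0.08 SE, adjusted p = 0.00127). Both lay far above the cassette in all 4 depleted libraries, and the higher values were those of Nab3 depletion. HRP1, a 3′ end factor, lay at -0.26, on the side of Nrd1 depletion, a call lost without the multiplication and without any library but Nrd1 library 2. TIS11 (1.24) belongs with the iron genes below.

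Genes behind snoRNAs were found from the annotation as those whose nearest annotated gene upstream, within 1000 bases, is a snoRNA gene on the same strand. Of 26 such genes, 7 (26.9%) were higher after Nrd1 and 2 (7.69%) after Nab3 depletion, against 8.89% and 12% of all features. TRS31, a subunit of the TRAPP vesicle tethering complex (chrIV:1403322-1404173, plus strand), starts 279 bases behind SNR13, the first of the snoRNA tails printed above. It had 1278 and 1241 in the Nab3 libraries, 3371 and 2859 in the Nrd1 libraries and 963 and 943 in the cassette libraries. Both depletions were above the cassette, and Nrd1 depletion was 2.47-fold above Nab3 depletion (log2 difference -1.30 ± 0.08 SE, adjusted p = 6.18e-05). YDR042C, of unknown function, lies 398 bases behind SNR47 and had 2914 and 3167 in the Nab3 libraries, 4279.7 and 3836 in the Nrd1 libraries and 199 and 175 in the cassette libraries. Its difference of -0.42 was lost without either Nab3 library, without the multiplication and without the trend in eBayes. The tail behind SNR13 holds GTAA 2 times, GTAG 2 times, TCTT 3 times and CTTG 1 time. That behind SNR47 holds GTAA 2 times, GTAG 1 time, TCTT 6 times and CTTG 1 time. SEN2, of the tRNA splicing endonuclease, lies 246 bases behind SNR79 and had 1313 and 1395 in the Nab3 libraries, 1978 and 1808 in the Nrd1 libraries and 830.4 and 734 in the cassette libraries (log2 difference -0.48 ± 0.08 SE, adjusted p = 0.00486). The others called higher after Nrd1 depletion were RPS14A, BUD22, UBA1 and YTM1, at -0.36, -0.28, -0.22 and -0.19, and each of these calls was lost without Nab3 library 3 and without the multiplication, where UBA1 and YTM1 also changed sign. BUD22 and YTM1 act in ribosome biogenesis, RPS14A is a ribosomal protein gene and UBA1 activates ubiquitin. TRS31 and SEN2 kept their calls when any 1 library was left out. The 2 called the other way were PDX3 (0.42) and CTO1 (0.27), both lost without Nab3 library 2. RGT1, behind SNR69, was above the cassette in all 4 depleted libraries, with 4223 and 4152 in the Nab3 libraries, 4465 and 3606 in the Nrd1 libraries and 1484 and 1639.9 in the cassette libraries, and was not called (0.06). A list of 15 genes named as lying downstream of snoRNA genes shares only TRS31, YDR042C and RGT1 with the 26. The annotation search did not find its other members, the called POP6, RPS22B and VPS60 among them, behind a snoRNA gene. The list had 4 higher after Nrd1 depletion, TRS31 and YDR042C among them, and 1 after Nab3 depletion. The 4 became 2 without either Nab3 library, and the 1 became 0 without either Nab3 or either cassette library and 3 without Nrd1 library 1.

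**Figure D5:**
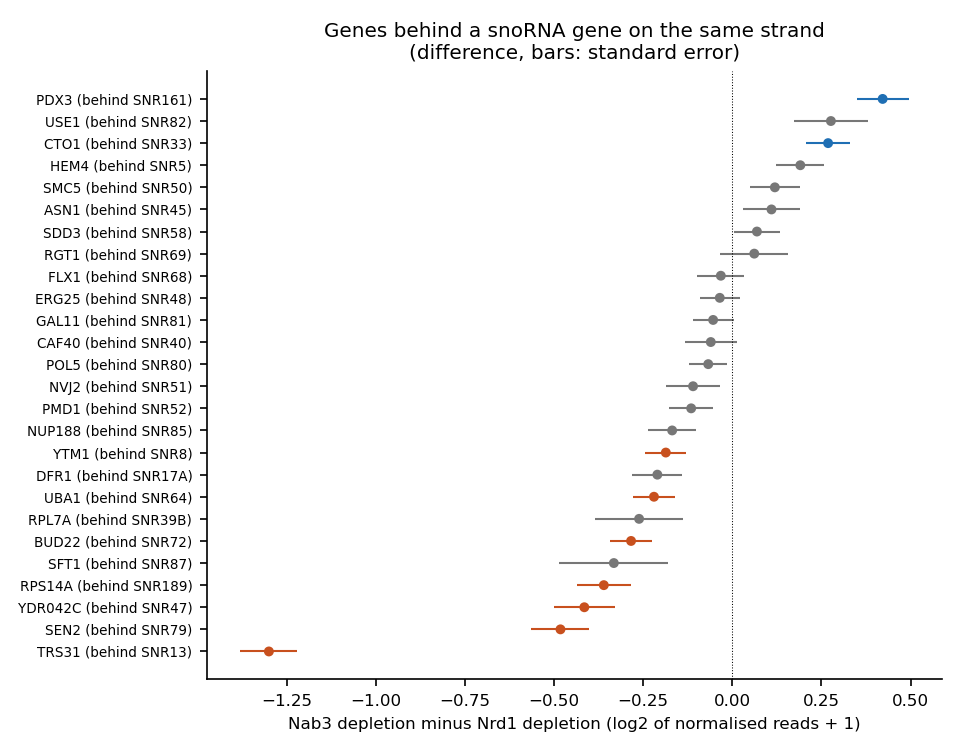
Difference between Nab3 and Nrd1 depletion (log2 of normalised reads plus 1, bars are the standard error) for 26 genes that lie behind a snoRNA gene on the same strand. Orange genes were called higher after Nrd1 depletion, blue after Nab3 depletion; TRS31 lies at -1.30 and the others between -0.48 and 0.42.

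Methionine and sulfur genes had 11 of 33 (33.3%) higher after Nab3 and 1 (3.03%) after Nrd1 depletion (median 0.22). Over all features the shares were 12% and 8.89%. Of the 33 genes, 5 were more than 1.5-fold apart between the Nrd1 libraries. SAM2, S-adenosylmethionine synthetase (chrIV:1453310-1454464, minus strand), had 4243 and 5909 in the Nab3 libraries, 1481 and 696 in the Nrd1 libraries and 1408 and 2023 in the cassette libraries. Nrd1 library 1 lay with the cassette and library 2 below it, and both Nab3 values were above all others (4.66-fold, log2 difference 2.30 ± 0.31 SE, adjusted p = 0.00203). SAM1, its close paralog with which reads may be shared, differed by 0.45, a call lost without either Nab3 library. MET6, methionine synthase, had 7037 and 8496 after Nab3 and 3976 and 1699 after Nrd1 depletion (log2 difference 1.57 ± 0.31 SE, adjusted p = 0.00933), a call that was also lost without either Nab3 library. MET13, which makes the folate that MET6 uses, differed by 0.96 and the methionine permease gene MUP1 by 0.75, the latter lost without Nab3 library 3. MET17, sulfhydrylase of the same route, had 1204 and 303 in the Nrd1 and 697 and 679.7 in the Nab3 libraries and was not called. The gene called the other way was JLP1, a sulfonate dioxygenase, at -0.60, lost without Nab3 library 3. The 11 calls became 3 without Nab3 library 2, 4 without Nab3 library 3, 7 without either cassette library and 18 without Nrd1 library 1. The part of the spread between the Nrd1 libraries in these results was not tested.

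Iron genes had 11 of 30 (36.7%, against 12% of all features) higher after Nab3 and 0 after Nrd1 depletion (median 0.17). On the Nrd1 side 4 reached an unadjusted p under 0.05, and edgeR and DESeq2 called 0. Of the 30 genes, 5 were more than 1.5-fold apart between the Nrd1 libraries. FTR1, the iron permease, had 3968 and 3598 in the Nab3 libraries, 2093 and 2459 in the Nrd1 libraries and 4924 and 4425 in the cassette libraries (log2 difference 0.74 ± 0.09 SE, adjusted p = 0.00129). Its partner oxidase FET3 had 3840.4 and 3663 in the Nab3 libraries, 1199 and 2535 in the Nrd1 libraries and 5945 and 5662 in the cassette libraries (log2 difference 1.11 ± 0.26 SE, adjusted p = 0.0189). TIS11, which degrades mRNAs of iron-using proteins, had 611 and 759 in the Nab3 libraries, 193 and 428 in the Nrd1 libraries and 886 and 855 in the cassette libraries (log2 difference 1.24 ± 0.29 SE, adjusted p = 0.0183). Both of the last calls were lost with DESeq2, without the trend in eBayes and without either Nab3 library. The siderophore transporter gene SIT1, with 662 and 2454 in the Nrd1 libraries, was not called. Several listed genes lay on the Nrd1 side without being called: FRE1 (-0.80), FIT2 (-0.52), FIT1 (-0.48), FIT3 (-0.39) and FRE4 (-0.22). The 11 calls became 2 without either Nab3 library, 7 without either cassette library and 17 without Nrd1 library 2, and 2 iron genes were called on the other side without either Nrd1 library.

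Genes under nitrogen catabolite repression, held down while good nitrogen sources last, had 9 of 40 (22.5%) higher after Nab3 and 2 (5%) after Nrd1 depletion (median 0.11). Against the cassette, 23 of the 40 were higher after Nab3 and 22 after Nrd1 depletion, beside 15.3% and 20.1% of all features. DAL1, allantoinase, had 137 and 133 in the Nab3 libraries, 307 and 219 in the Nrd1 libraries and 51.3 and 57.6 in the cassette libraries, a difference of -0.94 lost without either Nab3 library. The peptide transporter gene PTR2 had 2725 and 2821 in the Nab3 libraries, 1837 and 1877 in the Nrd1 libraries and 876 and 896 in the cassette libraries (log2 difference 0.58 ± 0.06 SE, adjusted p = 0.000448). Amino acid permeases had 4 of 23 higher after Nab3 and 3 after Nrd1 depletion, and Gcn4-type amino acid synthesis genes 6 and 3 of 49 (12.2% and 6.12%, against 12% and 8.89% of all features). With 1 library left out the permease counts ranged from 1, without Nab3 library 3, to 6 and from 0, without either Nab3 library, to 4. The Gcn4 counts ranged from 1, without Nab3 library 2, to 9 and from 0, without either Nab3 library, to 7, both highest without Nrd1 library 2. Purine and pyrimidine genes had 8 of 27 (29.6%) higher after Nab3 and 0 after Nrd1 depletion (4 at an unadjusted p under 0.05, 0 by edgeR and by DESeq2), IMD2 and URA8 included. Cell wall genes had 8 of 25 (32%) higher after Nab3 depletion, among them the mannoprotein genes CWP1 (0.49) and CWP2 (0.47). After Nrd1 depletion 0 were higher (3 at an unadjusted p under 0.05, 1 by edgeR, 0 by DESeq2). Without Nab3 library 2 or 3 the nitrogen count of 9 became 4, the cell wall count of 8 became 2 and the purine and pyrimidine count of 8 became 3 or 4; without either cassette library the last were 3 and 5. Without Nrd1 library 1 the nitrogen count was 14.

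Genes of the pheromone response, by which haploid cells prepare to mate, had 6 of 23 (26.1%, against 8.89% of all features) higher after Nrd1 depletion. After Nab3 depletion 0 were higher (median -0.29), with 2 of the latter at an unadjusted p under 0.05 and 0 by edgeR and DESeq2. PRM7, a pheromone-regulated gene, had 86.5 and 84.0 in the Nab3 libraries, 184 and 206 in the Nrd1 libraries and 98.2 and 93.7 in the cassette libraries (log2 difference -1.18 ± 0.16 SE, adjusted p = 0.00196). AGA1, the anchor of the mating agglutinin, had 311 and 283 in the Nab3 libraries, 982 and 549.7 in the Nrd1 libraries and 347 and 498 in the cassette libraries (log2 difference -1.31 ± 0.25 SE, adjusted p = 0.00836), a call lost without either Nab3 library. The 6 calls became 1 without either Nab3 library and 10 without Nrd1 library 2. Among 5 genes specific to alpha cells 2 were higher after Nrd1 depletion, MF(ALPHA)2 at -1.14 and AFB1 at -0.81, both lost without either Nab3 library, and 4 of the 5 were more than 1.5-fold apart between the Nrd1 libraries. The pheromone gene MF(ALPHA)1 of alpha cells had 4332 to 6352 normalised reads in the 6 libraries, whereas MFA2, a pheromone gene of a cells, had 5.85 to 21.2 and MFA1, the other, 2.26 to 13.4, with a mean under the minimum. The other a-specific genes were not all that low: STE6, the exporter of a-factor, had 976 to 1086 normalised reads and STE2, the receptor for alpha-factor, 289 to 544 in the 6 libraries. Of the 6 tested a-specific genes, limma, edgeR and DESeq2 called 0, and 2 were higher after Nrd1 depletion at an unadjusted p under 0.05.

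Among the other lists, hexose transport and glucose sensing genes had 7 of 28 (25%) higher after Nab3 and 2 (7.14%) after Nrd1 depletion. The largest difference was that of HXK1, a hexokinase gene (1.64), followed by GLK1, glucokinase (1.06). HXT7 and HXT6, near-identical transporters whose reads may be shared, lay at 0.95 and 0.90. Respiratory genes had 9 of 37 (24.3%) higher after Nab3 depletion and 0 the other way, with the oxidase subunit gene COX5B at 0.73. The count of 9 fell without either Nab3 library and rose without Nrd1 library 1. In the order Nab3 and Nrd1, glycolysis had 4 and 1 of 21 (19.0% and 4.76%) and gluconeogenesis 3 (18.8%) and 0 of 16. Ergosterol synthesis had 4 (15.4%) and 0 of 26, and proteasome subunits 5 and 2 of 35 (14.3% and 5.71%). Over all features the shares were 12% and 8.89%. Aryl-alcohol dehydrogenases and old yellow enzymes had 5 (26.3%) and 0 of 19, and histones 3 (27.3%) and 0 of 11. Cyclins had 1 (6.67%) and 0 of 15, strain marker genes 1 (11.1%) and 0 of 9. The rapamycin and TOR list had 1 and 1 of 21 (4.76% each). The medians of these lists lay between -0.04 and 0.37. Where the Nrd1 count was 0 by limma, at most 3 genes of a list reached an unadjusted p under 0.05 on that side, and edgeR or DESeq2 called at most 1. In each list of this paragraph but the hexose transport list, leaving out 1 of the 6 libraries moved a count by more than 1.5-fold. The counts higher after Nab3 depletion of proteasome, glycolysis and histone genes moved both ways. They fell without either Nab3 library and without either cassette library. Those of proteasome and glycolysis genes rose without Nrd1 library 2, and that of histone genes without Nrd1 library 1. TOR1 (0.01), FPR1, the rapamycin-binding protein (-0.11), and RPL13A, a gene often used to carry the anchor (-0.23), were not called.

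Several of the largest differences fell on genes outside these lists. YEL073C, an uncharacterised open reading frame (chrV:7230-7553, minus strand), had 959 and 1335 in the Nab3 libraries, 183 and 206 in the Nrd1 libraries and 535 and 726 in the cassette libraries (log2 difference 2.54 ± 0.18 SE, adjusted p = 0.000112). YDR034W-B, named CPP3 in RefSeq (1.84), and YIR042C (1.51) were higher after Nab3 depletion too, with 283 and 245 against 113 and 74.4 for the latter. On the other side, YHR022C-A (chrVIII:151217-151306, minus strand) had 36.7 and 42.6 in the Nab3 libraries, 159 and 169 in the Nrd1 libraries and 29.2 and 37.3 in the cassette libraries (log2 difference -2.02 ± 0.22 SE, adjusted p = 0.00077). BSC1 had 77.5 and 51.2 in the Nab3 libraries, 168 and 259 in the Nrd1 libraries and 99.0 and 90.4 in the cassette libraries (log2 difference -1.71 ± 0.26 SE, adjusted p = 0.00319). FRE7, a ferric and cupric reductase gene, had 295 and 661 after Nrd1 and 149 and 178 after Nab3 depletion (-1.44), a call lost without either Nab3 library. YMR122C lay at -1.97, with 24.5 and 24.4 against 92.1 and 105. The features YDR194W-A, YOR161C-C, YAR064W and YDL242W lay at -2.32, -1.74, -1.72 and -1.46 on 1.22 to 62.4 normalised reads, and each call was lost without at least 1 library.

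Of 612 features without an entry in the annotation, 92 (15.0%) were higher after Nrd1 and 22 (3.59%) after Nab3 depletion, with a median of -0.13. Of 5792 with an entry, 8.24% were higher after Nrd1 and 12.9% after Nab3 depletion. Calls were fewer at low levels, so the classes were also compared within 100 to 1000 normalised reads: there 73 of 268 without an entry (27.2%) were higher after Nrd1 and 13 (4.85%) after Nab3 depletion, against 159 (8.83%) and 231 (12.8%) of 1800 with one. Below 100 reads the shares were 4.08% and 1.57% without an entry and 4.73% and 2.96% with one. The largest without an entry were YHR145C (-1.80), YNL338W (-1.78) and YDR445C (-1.77) on the Nrd1 side, all lost without either Nab3 library, and YOL037C (1.19), YML057C-A (1.14) and YNL171C (1.11) on the Nab3 side, of which YNL171C was kept when any 1 library was left out. YNL171C had 261 and 234 in the Nab3 libraries, 114 and 114 in the Nrd1 libraries and 172 and 211 in the cassette libraries.

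The promoter letters printed above were counted on both strands in the window of 500 bases that ends 100 bases before the start codon of each of 5792 tested features with an entry. AGGGG was in 35.5% of all windows, 51.7% of the 748 called higher after Nab3 and 29.1% of the 477 called higher after Nrd1 depletion. Among those at least 2-fold apart, it was in 33 of 47 and 4 of 22 windows. In the same sets CATGTG was in 14 and 3 windows, CACGTG in 9 and 7 and CACGTT in 7 and 10. CATGTG was in 15.0% of all windows, 18.3% of those called higher after Nab3 and 11.9% of those called higher after Nrd1 depletion, and in 16 of 21 inositol and phospholipid genes. CACGTG was in 6.77% of all windows, 9.22% and 7.55% of these called sets, and in 20 of 30 phosphate genes. CACGTT was in 16.3%, 16.7% and 18.4%, and in 15 of the 30. The lists hold known targets of these activators, so their shares are a description. In the gene bodies, GTAA and GTAG together had a median of 5.24 per 1000 bases of the sense strand over all features, 5.28 in those higher after Nab3 and 5.15 in those higher after Nrd1 depletion. TCTT and CTTG together had 7.74, 7.91 and 8.03. A match is only a run of letters and shows neither binding nor its absence.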

How the data were processed

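RNA crosslinked to the tagged protein was measured in 6 libraries: 2 after Nab3 depletion, 2 after Nrd1 depletion and 2 of the cassette strain. The deposited signal is reads per feature divided by 1 size factor per library, by the authors, separately in the table of each depletion. The submitters' processing notes name Bowtie 1.1.1, DESeq and the builds R64 and sacCer3. Every value came out as a whole number of reads within 0.01 of a read (100% in each library), which gave the depths. Columns of the Nab3 libraries carry the numbers 2 and 3 and were assigned to the group only.

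The Nrd1 table was multiplied by 1.18. Features with a mean of at least 10 over the 4 depleted libraries were tested with limma 3.58.1 in R 4.3.3 on log2(value + 1), with a mean-variance trend, 3 residual degrees of freedom over all 6 libraries, and Benjamini-Hochberg adjustment over 6404 features at 0.05. Fold changes on this scale understate changes of low features. On recovered reads, edgeR 4.0.16 called 769 and 570 features and DESeq2 1.42.0 called 628 and 448. Scripts were tested on simulated data. Of 6677 features, 5911 were matched to the R64 annotation and 766 were not; 5906 deposited lengths equal the annotated length minus 1.

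Members and gene lists were chosen with earlier results of these data known. Named are the 12 largest called differences in each direction, 3 in each direction without an entry, the 4 largest called members per list, the genes of the complex, and the 5 largest called in opposite directions against the cassette; other list members, the copper genes and some snoRNA neighbours were chosen after their values were seen. The other 4 samples were not analysed here. Python 3.11.15 and matplotlib 3.10.9 were used for tables and figures.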

Additional observations from a re-analysis of the deposited data

Results flagged for a closer look

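In 11 of the genes named by size or list rank, the signal lay on opposite sides of the cassette libraries after Nab3 and after Nrd1 depletion. Both changes and the difference itself were called by limma. Genes chosen after their values were seen are not among the 11, and some of these met the same condition. PHO5, VTC1, VTC3, VTC4 and PHO81 were lower after Nab3 and higher after Nrd1 depletion, and CHO1, CKI1 and TPS1 the reverse. Higher after Nab3 and lower after Nrd1 depletion were YEL073C (difference 2.54 on the log2 scale), the inositol transporter gene ITR1 (1.65), the phosphatidylserine decarboxylase gene PSD1 (1.09), the protease gene PRB1 (0.74) and ERG20, farnesyl pyrophosphate synthetase of the sterol route (0.68). Lower after Nab3 and higher after Nrd1 depletion were the phosphate genes PHO84 (-4.52), SPL2 (-3.17) and PHM6 (-2.23), YMR122C (-1.97), PTI1 of the cleavage and polyadenylation factor (-0.79) and the ribosome biogenesis gene IMP3 (-0.37). Both changes of a gene are taken from the same 2 cassette libraries, which differ from the depleted libraries in strain and rapamycin as well. IMP3 lost its call without the multiplication of the Nrd1 table, while the other 10 kept theirs under all 18 alternatives. ERG20 changed by 0.42 (adjusted p = 0.00306) after Nab3 and by -0.26 (adjusted p = 0.0197) after Nrd1 depletion.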

How the results depend on the processing

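No paired analysis was possible because the Nab3 columns carry the numbers 2 and 3 and the Nrd1 columns 1 and 2, so the groups share only 1 number. Counts higher after Nab3 and after Nrd1 depletion were 770 and 569 in the fit reported; without the trend in eBayes they were 433 and 339, with only the 4 depleted libraries 488 and 310, and 3404 and 157 without the multiplication of the Nrd1 values. By at least 2-fold the last setting gave 118 and 18. Leaving out 1 library at a time gave 275 to 1160 and 134 to 924, and by at least 2-fold 25 to 90 and 18 to 94. Stress calls ranged from 22 to 39 with 1 library left out. Trehalose and glycogen calls were 8 without the trend and 5 to 16 with 1 library left out. Chaperone calls were 7 without the trend, 8 with the 4 depleted libraries, 25 without the multiplication and 6 to 25 with 1 library left out. Ribosome biogenesis calls were 13, 15 and 1 in the same settings, 47 with upper-quartile scaling and 7 to 39 with 1 library left out. The phosphate count of 19 higher after Nrd1 depletion and the phospholipid count of 15 higher after Nab3 depletion stayed within 1.5-fold under all 18 alternatives; the 1 phosphate gene called the other way became 0 to 7. Without the multiplication the called differences of SFP1, UBA1 and YTM1 changed sign, to 0.047, 0.020 and 0.053. The uncalled ones of NAB3 and RPB2 did so too, to 0.21 and 0.20. These are examples, because that setting moved the median of all features from 0.00 to 0.24. Other small negative differences, such as those of NRD1 (-0.09) and SEN1 (-0.14), are thus no firmer in sign. Of 123 named genes called, 59 were called under every alternative but the omission of the multiplication; 54 and 58 were lost without Nab3 library 2 and 3, 40 without the trend, 14 with DESeq2 and 1 with edgeR. Without the multiplication the median of all features moved as well, and with fewer libraries fewer degrees of freedom were left; the causes of the other changes were not tested. With 2 libraries a group, small differences and features under 100 reads are the least certain.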

Other observations

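The copper genes given here were chosen after their values were seen, and no list of copper genes was counted. The metallothionein gene CUP1-1, which binds surplus copper, had 2730.3 and 2560.3 normalised reads in the Nab3 libraries, 1096 and 1117 in the Nrd1 libraries and 3808 and 3535 in the cassette libraries (log2 difference 1.26 ± 0.06 SE, adjusted p = 1.93e-05 by limma). Its groups did not overlap, and both depletions lay below the cassette. CUP1-2, an identical copy whose reads cannot be separated from it, differed by 1.22, and both are overlapped by other annotated genes, so the single values are uncertain. The copper-zinc superoxide dismutase gene SOD1 differed by 0.53, with 4235 and 4713 against 3273 and 2928.

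Of the genes of copper uptake looked at, the reductase gene FRE7 was called, higher after Nrd1 depletion (-1.44, lost without either Nab3 library). The copper transporter gene CTR1 had 1268 and 1811 in the Nab3 libraries, 1796 and 3953 in the Nrd1 libraries and 761 and 805 in the cassette libraries, and its difference of -0.81 missed the threshold (adjusted p = 0.0852). The reductase gene FRE1, which is also in the iron list of the report (-0.80, adjusted p = 0.0949), and CTR3 (-0.54, adjusted p = 0.188) were not called either. The activators of copper uptake and of copper resistance, MAC1 (0.04) and CUP2 (0.14), were not called.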
